A study of Mus musculus with 5 samples.

Results

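CD4 and regulatory T cells of the mouse kidney were followed across 4 droplet single-cell libraries of a reversible injury, unilateral ureteric obstruction (UUO). Here the outflow of urine from 1 kidney is stopped and can be restored later. They were selected from raw counts of unique molecular identifiers (UMIs, each marking 1 captured transcript). A cell counted as a CD4 T cell with at least 2 UMIs summed over Cd3d, Cd3e and Cd3g, at least 1 UMI of Cd4 or Foxp3, and no UMI of Cd8a, Cd8b1 or Csf1r. The gate took 164 cells, called the CD4 T cells or members here, out of 699 T cells that passed the CD3 and Csf1r gate, 13823 cells that passed quality filters and 16876 deposited cells. A sham operation stood for day 0, obstructed kidneys were taken on day 2 and on day 7, and the library called reversed UUO was taken on experimental day 14, with 7 days elapsed since reversal. Each library pooled kidneys of 3 mice of strain C57/BL6 aged 8 weeks, and the live fraction was sorted with DAPI after digestion on ice. With a single library for each time point, no test between time points was possible. A further sample of 768 wells was not used here.

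CD4 T cells recognise peptides on class II major histocompatibility molecules and act mainly through cytokines and surface ligands such as CD40 ligand. Regulatory T cells are the CD4 subset governed by the transcription factor Foxp3; they restrain other immune cells through molecules such as CTLA-4, and in injured tissue a subset makes the repair factor amphiregulin. In obstructed kidneys, T cells arrive beside a much larger influx of myeloid cells. In the GENCODE M21 annotation of GRCm38, the build named in the submitters' processing notes, Cd4 lies at chr6:124864692-124888221 on the minus strand. Foxp3 lies at chrX:7573644-7595245 and Tnfrsf4, the gene of the costimulatory receptor OX40, at chr4:156013843-156016612, both on the plus strand.

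The gate rested on few UMIs per cell. Of the 164 members, 118 had Cd4 and no Foxp3 UMI, 29 had Foxp3 and no Cd4 UMI, and 17 had both. A single Cd4 or Foxp3 UMI carried 78 of them. The median member had 9 CD3 UMIs at day 7 and 9 after reversal. At the edge, 9 members had exactly 2 CD3 UMIs, while 15 cells outside had 1 CD3 UMI and met every other condition. A Csf1r UMI alone kept out 37 cells, 34 of them at day 7, and 8 cells with both Cd4 or Foxp3 and Cd8 UMIs were left out. Most members thus entered on Cd4. In cells without a CD3 UMI, 4.85% at day 7 and 2.34% after reversal had a Cd4 UMI, and 1.87% and 0.728% of those that also lacked Csf1r. These values chose the cells and are given as a description. The members held 2543 UMIs in sham, 83972 at day 2, 359567 at day 7 and 293075 after reversal, with medians per cell of 2543, 3620, 3950 and 3499. No barcode of a member occurred among the members of another library, although 16 to 39 barcodes were shared by each pair of libraries over all deposited cells.

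CD4 T cells were scarce in sham kidney and present at every later time point. The sham library held 1 of them among 18 T cells, or 5.56% (exact Clopper-Pearson 95% interval 0.141 to 27.3). Day 2 held 17 of 107 T cells (15.9%, interval 9.54 to 24.2). Day 7 held 77 of 278 (27.7%, interval 22.5 to 33.4), and the reversed library held 69 of 296 (23.3%, interval 18.6 to 28.6). The intervals of day 7 and reversed UUO overlapped, and that of sham, which rests on 18 T cells, held that of day 2 and reached into both. Per cell that passed filters, the shares were 0.0254% in sham, 0.77% at day 2, 1.73% at day 7 and 2.13% after reversal. With a limit of 20% mitochondrial UMIs they were 0.154, 1.06, 1.84 and 3.23% in the same order. With a Cd4 UMI required they were 0.0254, 0.68, 1.48 and 1.64%. With 1 CD3 UMI sufficient, members made up 16.6% of T cells at day 7 and 12.2% after reversal. Intervals throughout cover counting error only, not differences between animals or dissections. The shares also depended on depth. T cells that had passed the CD3 and Csf1r gate at full depth were reduced to 1000 UMIs before the Cd4 and Cd8 part of the gate. Members then made up 0, 8.41, 10.1 and 12.2% of T cells from sham to reversed UUO, so the order of day 7 and reversed UUO turned over.

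Foxp3 was found in a minority of the CD4 T cells. No Foxp3 UMI was seen in the 1 sham member, which allows a share of cells with a UMI of up to 97.5% and sets no limit on expression. Day 2 had 3 Foxp3-positive cells among 17 (17.6%, exact interval 3.8 to 43.4), day 7 had 20 among 77 (26%, interval 16.6 to 37.2), and reversed UUO had 23 among 69 (33.3%, interval 22.4 to 45.7). The intervals of the 3 obstructed or reversed libraries overlapped widely. Thinned to 1000 UMIs per cell, the shares were 11.8%, 7.79% (interval 2.91 to 16.2) and 14.5% (interval 7.17 to 25). Since a Foxp3 UMI alone admits a cell, the share was also taken over members with a Cd4 UMI: it was then 9 of 66 (13.6%) at day 7 and 7 of 53 (13.2%) after reversal, which are nearly equal. Of all gated T cells, which were not chosen on Foxp3, 7.91% at day 7 and 8.11% after reversal carried a Foxp3 UMI. In cells without any CD3 UMI, where Foxp3 should be absent, 0.208% at day 7 and 0.161% after reversal had a Foxp3 UMI, at median depths of 5603.5 and 4959 UMIs, against 3950 and 3499 in members. The T cell shares were above this level, which free RNA in the droplets can set.

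**Figure D1:**
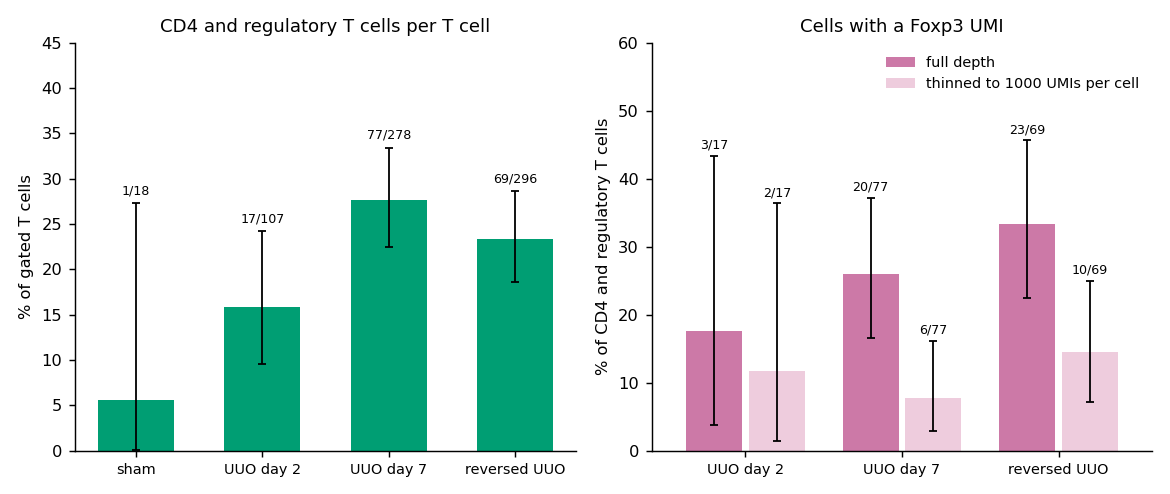
Left, CD4 T cells as a percentage of gated T cells in each library. Right, percentage of CD4 T cells with a Foxp3 UMI at full depth and after thinning to 1000 UMIs per cell. Bars start at 0, numbers above them are cells over total, and whiskers are exact 95% intervals for counting error; the intervals of day 7 and reversed UUO overlap in both panels.

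Among the genes that differed between CD4 T cells and CD8 T cells of the same libraries were receptors and regulators of helper and regulatory T cells, which were higher, and cytotoxic genes, which were lower. CD8 T cells passed the same CD3 and Csf1r gate, with at least 1 Cd8a or Cd8b1 UMI and no Cd4 or Foxp3 UMI (45, 78 and 97 cells at day 2, day 7 and after reversal). UMIs were summed per library and class and tested within libraries over day 2, day 7 and reversed UUO, with the gate genes left out. Of 5298 genes tested, 89 were higher in CD4 T cells (1.68%) and 67 were lower (1.26%) at an adjusted p below 0.05 by edgeR's quasi-likelihood test with Benjamini-Hochberg adjustment. The median log2 difference over all genes was -0.03. Leaving out 1 library at a time gave 34 to 60 higher and 29 to 51 lower genes. The fewest of these were without day 7 (34 and 29), and without reversed UUO there were 45 and 42. DESeq2 called 49 and 37, and the fit without the library block 31 and 16.

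Several receptors that mark helper and regulatory T cells were higher. Levels are given in CPM, the UMIs of a gene per 1000000 UMIs summed over the cells of a class in a library. Tnfrsf4 stood at 690.7 CPM at day 2, 417.2 at day 7 and 634.6 after reversal in CD4 T cells, against 23, 19.5 and 77.1 in CD8 T cells. Every CD4 value was above every CD8 value, and the log2 fold change was 3.66 ± 0.29 (SE, 3 libraries; edgeR adjusted p = 7.05e-07). Ctla4, the inhibitory receptor that competes with CD28 for its ligands, stood at 214.4, 153 and 116 CPM against 4.6, 8.34 and 14.5 (log2 fold change 3.73 ± 0.42, edgeR adjusted p = 3.89e-05). Cd40lg, which encodes CD40 ligand and licenses B cells and antigen-presenting cells, stood at 119.1, 91.8 and 122.8 CPM against 0, 5.56 and 12.1 (3.81 ± 0.48, edgeR adjusted p = 0.00012). Neither gene overlapped between the classes. Icos, a costimulatory receptor, stood at 262, 216.9 and 150.1 CPM against 9.19, 30.6 and 38.6 (2.65 ± 0.34, edgeR adjusted p = 0.000174). Of the 10 genes tested from a list of CD4 lineage and helper signals, 6 were higher and none was lower, with a median log2 difference of 1.85.

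Several genes of regulatory T cells moved the same way. Of 23 listed genes 16 could be tested, 10 were higher and none was lower, with a median log2 difference of 1.99. They were Capg, Cd83, Ctla4, Icos, Ikzf2, Izumo1r, Nrp1, Tnfrsf18, Tnfrsf4 and Tnfrsf9. Ikzf2, which encodes the transcription factor Helios, stood at 309.6, 483.9 and 730.2 CPM in CD4 T cells against 64.3, 75 and 43.4 in CD8 T cells, with no overlap (2.99 ± 0.3, edgeR adjusted p = 1.03e-05). Capg, an actin-capping protein gene, stood at 607.3, 770.4 and 559.6 CPM against 110.3, 150 and 69.9 (2.5 ± 0.22, edgeR adjusted p = 2.24e-06). Tnfrsf18, the gene of the costimulatory receptor GITR, differed by 2.04 ± 0.25 and Tnfrsf9, the gene of 4-1BB, by 2.63 ± 0.38 on the log2 scale. Izumo1r, which encodes the folate receptor-like protein FR4, differed by 2.78 ± 0.39. The call of Nrp1 was lost without day 2 and without day 7, and that of Cd83 without any 1 library and with DESeq2. Il2ra, the alpha chain of the interleukin-2 receptor and a classical surface marker of regulatory cells, was sparse at 35.7, 30.6 and 61.4 CPM and did not pass (edgeR adjusted p = 0.425). No UMI of Il10 or Gpr83 was found in any member. The gate admitted 29 members on Foxp3 alone, and the part of that choice in these differences was not tested.

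Among genes linked to regulatory cells with repair functions, 8 of 13 could be tested, 6 were higher and none was lower, with a median of 1.51. They were Areg, Furin, Gata3, Klrg1, Maf and Rora. Gata3, the transcription factor of type 2 cells that is also used by tissue regulatory cells, stood at 238.2, 111.2 and 242.3 CPM against 82.7, 50 and 50.6 (1.55 ± 0.3, edgeR adjusted p = 0.00661). Rora, a nuclear receptor gene, stood at 166.7, 172.4 and 201.3 CPM against 59.7, 58.4 and 67.5 (1.46 ± 0.24, edgeR adjusted p = 0.00174). Areg, which encodes amphiregulin, was carried by few cells: 2, 6 and 8 members had it, and 1 CD8 T cell in all (5.59 ± 1.06, edgeR adjusted p = 0.00578). The calls of Areg, Furin, Maf and Rora were lost without day 7, and those of Areg, Gata3 and Klrg1 without reversed UUO.

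Several cytokine and effector genes were found in few cells. Ccl1, a chemokine that attracts CCR8-bearing cells, reached 2096 CPM at day 2 and 1688 CPM at day 7, of which 1 cell gave 99.4% and 1 cell 61.3% (6.32 ± 0.41 against CD8 T cells, edgeR adjusted p = 9.17e-08). After reversal it was at 40.9 CPM. Il17a, the type 17 cytokine, was found in 1, 3 and 3 members and in no CD8 T cell, so that its level was at least 16.6-fold higher, counting 3 UMIs over all CD8 T cells as the floor. Gzmc differed by 5.01 ± 1.27 in 1, 4 and 2 members, with 82.1% of the day 7 UMIs from 1 cell. Cd70, the ligand of CD27, differed by 5.07 ± 1.08 and was found in 3, 7 and 2 members. The calls of Il17a and Gzmc were lost with DESeq2 and without the highest doublet scores, those of Gzmc and Cd70 without reversed UUO, and that of Gzmc without day 2.

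Of 9 tested chemokine and egress receptors 2 were higher, Ccr4 and Ccr6, and none was lower, with a median of -0.15. Ccr4 was found in 3, 17 and 8 members against 0, 3 and 0 CD8 T cells (4.02 ± 0.68, edgeR adjusted p = 0.00192). Ccr6 was found in 1, 12 and 9 members against 1, 1 and 3 CD8 T cells (3.13 ± 0.57, edgeR adjusted p = 0.00404). Tiam1, which encodes an activator of the GTPase Rac, was found in 2, 15 and 8 members against 1, 1 and 1 CD8 T cells (3.62 ± 0.74). The call of Ccr6 was lost without day 7 and that of Tiam1 without reversed UUO. Of lineage-defining cytokines, Il4 was seen as 1 UMI at day 7 and 1 after reversal, Il5 as 1 after reversal, and Il13 and Il22 in no member. Bcl6, the regulator of follicular helper cells, had no UMI in a member, and Cxcr5 had 1 at day 7 and 2 after reversal.

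The cytotoxic programme was the largest group on the lower side. Of 15 tested genes 11 were lower and none was higher, with a median log2 difference of -2.66. They were Ccl5, Ctsw, Eomes, Fasl, Gzma, Gzmk, Klrc1, Klrd1, Klre1, Klrk1 and Nkg7. Ccl5, a chemokine stored by cytotoxic cells, stood at 416.8, 750.9 and 508.4 CPM in CD4 T cells against 10091, 5129 and 5400 in CD8 T cells (-3.6 ± 0.28, edgeR adjusted p = 7.05e-07). Nkg7, a granule membrane protein gene, stood at 619.3, 750.9 and 433.3 CPM against 2178, 2209 and 1938 (-1.95 ± 0.18, edgeR adjusted p = 5.49e-06). Neither gene overlapped between the classes. Gzma, which encodes a granule protease, had 5 UMIs in 5 members at day 7 and none in the other libraries, against 542.2, 344.5 and 28.9 CPM in CD8 T cells (-5.2 ± 0.49, edgeR adjusted p = 5.49e-06). In CD8 T cells 1 cell gave 57.6% of its UMIs at day 2 and 1 cell 82.3% at day 7. The inhibitory receptor gene Klrc1 had no UMI in a member and was at least 21.8-fold lower. The receptor gene Klra7 was at least 6.68-fold lower and the T cell receptor gene Tcrg-C2 at least 7.67-fold lower, each with no UMI in members, and both calls were lost without day 7 and without reversed UUO. In CD8 T cells 1 cell gave 87.5% of the Klra7 UMIs after reversal. Gzmk differed by -3.46 ± 0.48, and Gzmk, Fasl and Klre1 lost their calls without reversed UUO, Fasl also without day 7. Eomes (-3.3 ± 0.73), Dapl1 (-3.3 ± 0.71), Trdc (-3.84 ± 0.98) and Klrb1c (-3.59 ± 0.86) lost theirs with DESeq2. Dapl1, Klrb1c and Trdc also lost theirs without reversed UUO, Dapl1 and Klrb1c without day 2, and Trdc without day 7. Gzmb was 1 of 4 tested cytotoxic genes that did not pass (edgeR adjusted p = 0.675). It stood at 595.4, 89 and 23.9 CPM in CD4 T cells and 307.9, 250.1 and 91.6 in CD8 T cells.

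Of 18 T cell identity genes 2 were higher, Cd5 and Cd6, which encode scavenger receptor family members that tune T cell receptor signals. Trac, the constant region of the T cell receptor alpha chain, stood at 1584, 928.9 and 1051 CPM against 827.1, 791.9 and 687.1 and did not pass (edgeR adjusted p = 0.198). Of 16 cell cycle genes none passed. Of 16 interferon-response genes, Ifi27l2a was higher, at 1000 to 2147 CPM against 303.3 to 872.5 CPM (1.51 ± 0.17, edgeR adjusted p = 3.89e-05). Of 13 tested immediate-early and heat-shock genes, which dissociation can raise, 3 were higher (Dusp1, Junb and Jund) and none was lower, with a median of 0.43. That list summed to 3906, 3696 and 4129 CPM against 2026, 2276 and 2367 CPM. Markers of other cells were also present: the 12 macrophage and monocyte markers summed to 797.9, 4467 and 1938 CPM in CD4 T cells and to 583.6, 4999 and 1772 CPM in CD8 T cells, and none of the 10 tested passed. The 11 proximal tubule markers summed to 1072, 634.1 and 3989 CPM against 3345, 1225 and 6726 CPM. Of these, 5 of 11 were lower in CD4 T cells, all of which lost the call at a limit of 20% mitochondrial UMIs. The 8 injured tubule markers summed to 2465, 1124 and 900.8 CPM against 12329, 1753 and 1432 CPM. None of the 4 tested passed, and their median was -1.59. The part of all these markers in the other differences was not tested.

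**Figure D2:**
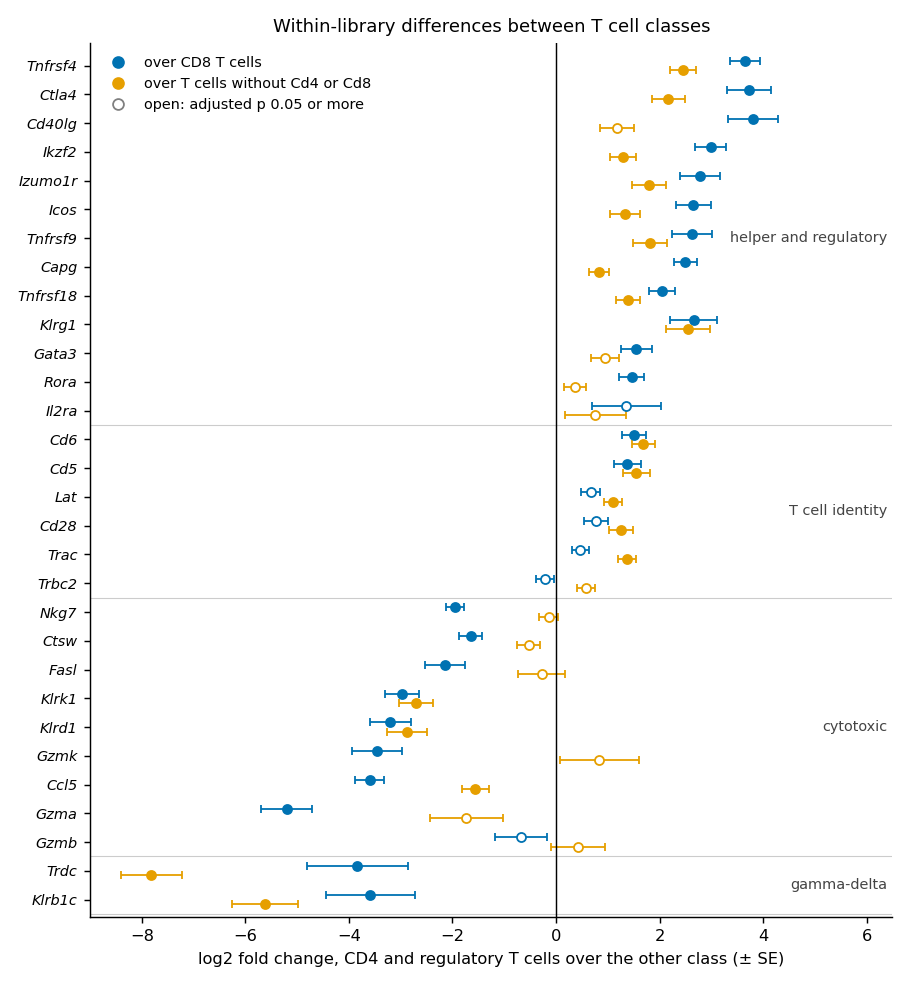
Log2 fold changes of CD4 T cells over CD8 T cells (blue) and over T cells without Cd4 or Cd8 UMIs (orange), from sums per library over 3 libraries, with SE as whiskers; filled points passed an adjusted p below 0.05. Against CD8 T cells, most helper and regulatory genes lie to the right and most cytotoxic and gamma-delta genes to the left. Against T cells without Cd4 or Cd8 UMIs, the open points include Nkg7, Ctsw, Fasl, Gzmk, Gzma, Cd40lg, Gata3 and Rora. Il2ra and Gzmb are open in both comparisons.

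T cells in which no Cd4, Foxp3, Cd8a or Cd8b1 UMI was found (45, 118 and 127 cells) served as a second comparison. This class can hold CD4 and CD8 T cells whose transcript was missed as well as gamma-delta and innate-like T cells. CD4 T cells had 59 higher genes (1.11% of 5298) and 154 lower genes (2.91%) against it by the same edgeR test, and the median over all genes was -0.00. Without day 7 the counts were 12 and 47, and without reversed UUO 11 and 43. DESeq2 called 19 and 63, and the fit without the library block 4 and 9, with 13 of the 213 calls kept.

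Of 18 T cell identity genes 8 were higher than in this class, 10 did not pass and none was lower, with a median of 0.66. The 8 were Cd2, Cd28, Cd5, Cd6, Lat, Lck, Trac and Trbc1. Trac and Cd6 kept their calls with DESeq2 and when day 7 or reversed UUO was left out, while Cd2, Lck and Trbc1 lost theirs when either was left out, Cd28 and Lat without day 7 and Cd5 without reversed UUO. Trac stood at 1584, 928.9 and 1051 CPM against 558.2, 422.8 and 318.4 (1.37 ± 0.17, edgeR adjusted p = 0.000129). Trdc, the constant region of the delta chain, gave 1 UMI in all members, against 816.3, 455.5 and 138.1 CPM in T cells without coreceptor UMIs (-7.82 ± 0.59, edgeR adjusted p = 4.94e-07). All 4 tested gamma-delta and innate-like genes were lower, with a median of -6.35. Of 15 tested cytotoxic genes 5 were lower (Ccl5, Klrc1, Klrd1, Klre1 and Klrk1), 10 did not pass and none was higher. Their median was -0.53, against -2.66 in the comparison with CD8 T cells. Of 9 natural killer and innate lymphoid genes 4 could be tested, 2 were lower (Klrb1c and Klre1) and 2 did not pass. Among the genes with the largest differences, Klra7, Klra9, Klrc1 and Tcrg-C2 had no UMI in members and were at least 47.2-fold, 16.9-fold, 10.5-fold and 10.9-fold lower. Klrb1c, which encodes NK1.1, differed by -5.62 ± 0.63, Klre1 by -3.58 ± 0.53, Klrc2 by -3.54 ± 0.59 and Tcrg-C1 by -3.91 ± 0.8.

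Some regulatory genes were higher in this comparison too, which shares the CD4 sums with the one against CD8 T cells. The gate also counted 29 T cells with Foxp3 and no Cd4 UMI as members, which kept them out of the other class. The part of that choice in these differences was not tested. Of 16 tested, 8 were higher and none was lower, with a median of 0.91 (1.99 against CD8 T cells). Tnfrsf4 stood at 126.4, 75 and 102.9 CPM in T cells without coreceptor UMIs (2.45 ± 0.25 for CD4 over them, edgeR adjusted p = 1.75e-05), and Ctla4 differed by 2.17 ± 0.32. Klrg1, an inhibitory receptor of differentiated T cells, stood at 297.7, 89 and 157 CPM in members against 10.5, 26.9 and 25.4 (2.55 ± 0.42, edgeR adjusted p = 0.0015). Of 8 tested repair-associated genes 2 were higher (Batf and Klrg1) and none was lower, with a median of 0.88. The 6 that did not pass included Areg, Furin, Gata3, Maf and Rora. Of 10 CD4 lineage and helper genes 4 were higher (Cd5, Icos, Izumo1r and Tnfrsf4) and none was lower, with a median of 1.07. Cd40lg and Gata3 were among the 6 that did not pass. Tnfsf11, which encodes RANKL, differed by 1.93 ± 0.33, Ccr4 by 2.25 ± 0.5, Lrba, which encodes a trafficking partner of CTLA-4, by 1.72 ± 0.42, and Fam169b by 1.71 ± 0.34. Ccl1 (6.7 ± 0.41) and Cd70 (3.72 ± 0.83) were again high in few cells. Pdcd1, Sh2d1a and Slamf6, the 3 genes tested from a follicular helper list, were all higher, at 1.48 ± 0.36, 1.11 ± 0.29 and 1.34 ± 0.29; the first encodes the inhibitory receptor PD-1. Without day 7, without reversed UUO and with DESeq2, the calls of Tnfrsf4, Ctla4 and Klrg1 were kept and those of Pdcd1, Sh2d1a, Slamf6, Icos, Capg, Izumo1r, Batf and Fam169b were lost. Without reversed UUO, Ikzf2, Tnfrsf9, Tnfrsf18, Ccr4, Lrba and Cd70 also lost theirs, Ccr4, Lrba and Cd70 with DESeq2 too, and Tnfrsf18 and Tnfsf11 without day 7. Il17a, by contrast, was as high or higher in T cells without coreceptor UMIs at day 2 and day 7 (774 and 82.6 CPM against 35.7 and 72.3) and did not pass (edgeR adjusted p = 0.333). Tmem176a and Tmem176b, membrane protein genes of type 17 cells, were lower in CD4 T cells, at -1.1 ± 0.21 and -1.21 ± 0.19. Both calls were lost without day 7 and that of Tmem176a without reversed UUO. The 9 type 17 genes listed, these 2 included, summed to 1900, 1971 and 1381 CPM in cells without CD3 UMIs. In members they summed to 702.6, 820.4 and 447 CPM.

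Non-T-cell markers differed in this comparison. All 11 proximal tubule markers were lower in CD4 T cells, with a median of -1.83, and they summed to 4202, 1912 and 13245 CPM in T cells without coreceptor UMIs. Slc13a1, a tubule transporter gene, differed by -3.97 ± 0.56, with 86.7% of its day 7 UMIs in that class from 1 cell. The 6 neutrophil markers summed to 158, 1884 and 294.5 CPM in that class and to 83.4, 194.7 and 102.4 CPM in CD4 T cells, with all 3 tested lower. All 3 tested fibroblast markers (Col1a1, Col1a2 and Col3a1; median -2.86), 2 of 4 injured tubule markers (Lcn2 and Spp1; median -2.04) and 2 of 5 endothelial markers (Egfl7 and Plvap; median -1.09) were lower too. After reversal the injured tubule markers summed to 900.8 CPM in CD4 T cells and 8898 CPM in that class. Their part in the other differences was not tested.

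CD4 T cells with a Foxp3 UMI were compared with those without. Ikzf2, Tnfrsf4 and Klrg1 were among the genes that were higher with Foxp3, and Nkg7, Cxcr6 and Xcl1 among those that were lower, but none of the calls was kept without the library block. The fit used 2 libraries with at least 10 cells of each kind, day 7 (20 and 57 cells) and reversed UUO (23 and 46 cells). Foxp3-negative members all carried Cd4 by the gate, and median depth was similar (3813 and 3733 UMIs with Foxp3, 3999 and 3458 without). The Foxp3-negative group can hold regulatory cells whose Foxp3 transcript was missed. Thinned to 1000 UMIs, the Foxp3-positive share went from 26% to 7.79% at day 7 and from 33.3% to 14.5% after reversal. Of 2425 genes tested, 47 were higher (1.94%) and 30 were lower (1.24%) in Foxp3-positive cells by edgeR's quasi-likelihood test, with a median log2 difference of -0.02. The test had 1 residual degree of freedom and borrows its spread from all genes, and its counts were fragile: DESeq2 called 2 higher and 3 lower, the fit without a library block 0 and 0, and thinning to 1000 UMIs 0 and 0. Leaving out the highest doublet scores gave 6 and 8, a limit of 20% mitochondrial UMIs 13 and 8, and no TMM scaling 18 and 9. Of the 77 calls DESeq2 kept 5, with 1 gene in the other direction. Of 38 called genes that were on a list or among the largest differences, DESeq2 kept 3, which were Ikzf2, Nkg7 and Xcl1. Without the highest doublet scores 11 of the 38 kept the call, and Ctla4, Tnfrsf18 and Capg were among those that lost it. Without TMM scaling 19 kept it, and Gata3 and Tcf7 were among those that lost it. No library could be left out.

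Of 12 tested regulatory genes 6 were higher and none was lower, with a median of 1.18. Ikzf2 stood at 1091 CPM at day 7 and 1443 after reversal in Foxp3-positive cells, against 279 and 326.1 in Foxp3-negative cells. It was found in 17 of 20 and 23 of 23 Foxp3-positive cells and in 19 of 57 and 21 of 46 others (log2 fold change 2.03 ± 0.28, edgeR adjusted p = 1.7e-10; DESeq2 adjusted p = 0.00204). Tnfrsf4 stood at 804.6 and 1207 CPM against 286.4 and 310.1 (1.7 ± 0.28, edgeR adjusted p = 2.55e-07). Both genes were higher with Foxp3 in each library, but Foxp3-negative members still held Tnfrsf4 in 24 of 57 and 18 of 46 cells. Tnfrsf9 stood at 209.4 and 613 CPM against 74.4 and 96.2 (2.14 ± 0.34), and Ctla4 at 275.5 and 235.8 CPM against 111.6 and 48.1 (1.65 ± 0.38). Tnfrsf18 differed by 1.43 ± 0.28 and Capg by 1.21 ± 0.27. Icos was at similar levels, 231.5 and 132 CPM against 212 and 160.4, and did not pass (-0.07 ± 0.35, edgeR adjusted p = 0.985).

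Of 7 repair-associated genes tested, 3 were higher with Foxp3 and none was lower. Klrg1 stood at 242.5 and 367.8 CPM against 37.2 and 37.4 (2.94 ± 0.42, edgeR adjusted p = 7.77e-10). It was found in 7 of 20 and 12 of 23 Foxp3-positive cells. Gata3 stood at 187.4 and 415 CPM against 85.6 and 144.4 (1.33 ± 0.34, edgeR adjusted p = 0.00665). Areg stood at 99.2 and 273.5 CPM against 14.9 and 16 (3.39 ± 0.56), but 1 cell gave 77.8% of the day 7 UMIs and 1 cell 62.1% of those after reversal. Other genes with the largest differences were Ncmap (4.05 ± 0.91), Apol9b (2.29 ± 0.7), Wls, which encodes a carrier of Wnt ligands (2.13 ± 0.47), Gsto1 (2.07 ± 0.64), Ubash3b (1.74 ± 0.54) and Fgl2, an immunosuppressive fibrinogen-like protein gene (1.73 ± 0.34).

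Of 7 tested CD4 lineage and helper genes, 2 were higher with Foxp3 (Gata3 and Tnfrsf4) and 1 was lower (Cd40lg), with a median of 0.51. Cd40lg had no UMI in the 43 Foxp3-positive cells of both libraries and stood at 122.8 and 192.5 CPM in Foxp3-negative cells, where 20 of 57 and 20 of 46 carried it. It was thus at least 9.93-fold lower with Foxp3, counting 3 UMIs over the group. Nkg7 stood at 187.4 and 84.9 CPM against 941.1 and 630.9 (-2.58 ± 0.35, edgeR adjusted p = 7.13e-11; DESeq2 adjusted p = 0.00307). Cxcr6, a receptor of tissue-homing effector cells, stood at 121.2 and 103.7 CPM against 479.8 and 620.2 (-2.31 ± 0.35, edgeR adjusted p = 1.99e-08). Of 16 cytotoxic genes 4 could be tested, and all 4 were lower (Ccl5, Ctsw, Nkg7 and Xcl1). Of 7 tested type 1 helper genes 4 were lower (Ccl5, Cxcr6, Ly6c2 and Nkg7), none was higher and 3 did not pass; Ccl5 and Nkg7 are in both lists. Xcl1, a chemokine for cross-presenting dendritic cells, had 1 UMI in Foxp3-positive cells, against 929.9 and 208.5 CPM in 9 and 10 Foxp3-negative cells (-6.56 ± 0.66, edgeR adjusted p = 1.27e-19).

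Of 18 T cell identity genes 3 were lower with Foxp3 (Lat, Tcf7 and Thy1), 15 did not pass and none was higher, with a median of -0.44. The transcription factor gene Tcf7, which keeps T cells in a memory-like state, stood at 11 and 9.43 CPM against 78.1 and 112.3 (-3.17 ± 0.8, edgeR adjusted p = 0.00549). Fos, an immediate-early gene that dissociation can raise, stood at 33.1 and 47.2 CPM against 171.1 and 320.8 (-2.62 ± 0.48). Ccl1 (-4.25 ± 0.48), Cdc20 (-3.7 ± 0.99), Evi2a (-3.1 ± 0.8), Ms4a4c (-3.07 ± 0.81), 5430421N21Rik (-2.87 ± 0.69) and Ly6c2 (-2.64 ± 0.63) were the other genes with the largest differences in this direction; Ccl1 was found in 4 and 2 Foxp3-negative cells (600 and 9 UMIs) and in 3 and 1 Foxp3-positive cells (7 and 3 UMIs), and the UMIs of Cdc20 after reversal came from 1 cell. The dendritic and class II genes H2-Aa and H2-Ab1 were lower with Foxp3 as well (-1.1 ± 0.28 and -0.88 ± 0.27), and their part in the result was not tested. S100g passed with opposite directions in the libraries and 98.2% of its Foxp3-positive UMIs after reversal from 1 cell.

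**Figure D3:**
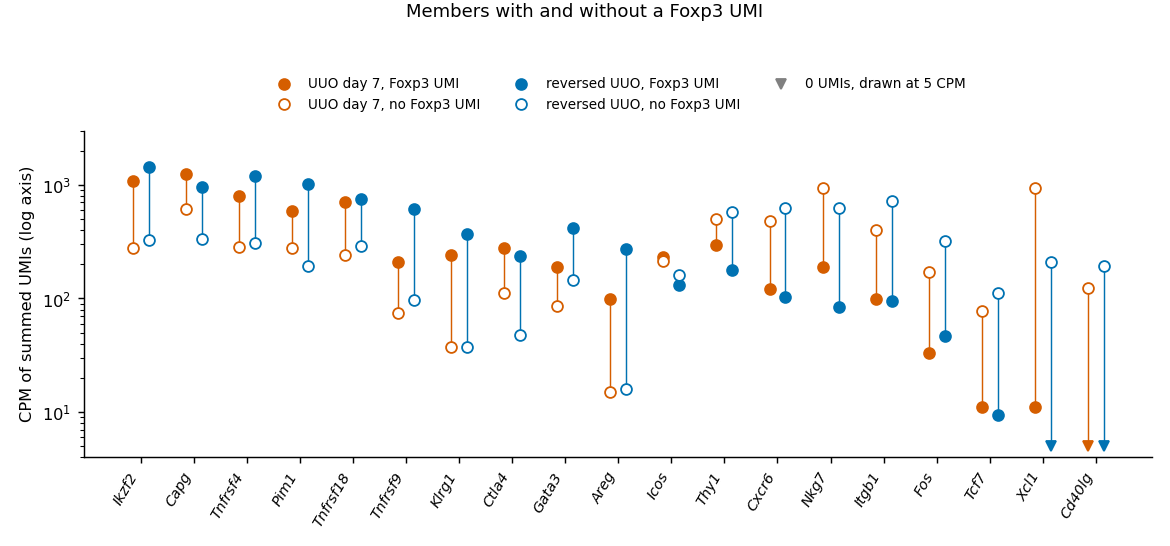
CPM (log axis) of selected genes in CD4 T cells with (filled) and without (open) a Foxp3 UMI at day 7 and after reversal, 1 library each; triangles mark 0 UMIs. Ikzf2, Tnfrsf4 and Klrg1 lie higher with Foxp3 in both libraries, Nkg7, Cxcr6 and Cd40lg lie lower, and Icos lies close together.

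Reversal was compared with day 7 in CD4 T cells as a description of these libraries. Ratios are log2 of CPM plus a pseudocount of 10 CPM, over genes with at least 30 summed UMIs, with exact conditional binomial 95% intervals for counting error. Of 3286 genes, 81 were at least 2-fold higher after reversal (2.47%) and 96 at least 2-fold lower (2.92%), with a median of -0.05. With a pseudocount of 50 CPM the counts were 42 and 30.

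Several cell cycle genes were lower after reversal. Of 12 with enough UMIs, 7 were at least 2-fold lower (Cks1b, Hmgb2, Mcm6, Pcna, Rrm2, Stmn1 and Top2a), none was higher, and the median was -1.11. Top2a, the topoisomerase of dividing cells, went from 353.2 CPM in 22 cells at day 7 to 47.8 CPM in 10 cells (-2.65, interval -3.38 to -1.95). Hist1h2ap, a histone gene, went from 517.3 to 10.2 CPM (-4.7, interval -5.46 to -3.7), with 186 UMIs in 9 cells at day 7. The replication-associated gene 2810417H13Rik went from 216.9 to 10.2 CPM (-3.49) and the condensin gene Smc2 from 172.4 to 23.9 CPM (-2.43). Mki67 went from 141.8 to 102.4 CPM (-0.43, interval -1.07 to 0.19), but 73.3% of its UMIs after reversal came from 1 of 8 cells. The summed cell cycle list was at 3552 CPM at day 7 and 1471 CPM after reversal, against 1167 CPM at day 2. After thinning to 1000 UMIs, 36 of 77 members at day 7 and 17 of 69 after reversal had at least 2 of its UMIs (46.8% and 24.6%, intervals 35.3 to 58.5 and 15.1 to 36.5). The list also went from 1194 to 663.1 CPM in cells without CD3 UMIs and from 3284 to 1827 CPM in CD8 T cells.

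Some cytotoxic genes were lower after reversal. Of 7 cytotoxic genes with enough UMIs, 3 were at least 2-fold lower (Ccl4, Gzmb and Xcl1), none was higher, and the median was -0.78. The summed list went from 3371 to 1426 CPM in members, from 1196 to 570.3 CPM in cells without CD3 UMIs and from 9881 to 9462 CPM in CD8 T cells. Thinned to 1000 UMIs, 29 of 77 members at day 7 and 24 of 69 after reversal had at least 2 of its UMIs. These shares were 37.7% (interval 26.9 to 49.4) and 34.8% (interval 23.7 to 47.2). At full depth they were 67.5% and 72.5%. Of 8 type 1 helper genes 1 was lower (Ifng), with a median of 0.13. Ccl5 went from 750.9 to 508.4 CPM (-0.55), short of 2-fold. Ccl4 went from 731.4 CPM in 24 cells to 27.3 CPM in 7 cells (-4.31, interval -5.11 to -3.52), and it was -3.7 when the 1 cell with 47.5% of the day 7 UMIs and its counterpart were left out. Xcl1 went from 698.1 to 133.1 CPM, in 10 cells each time (-2.31, interval -2.79 to -1.84; -1.6 without the highest doublet scores). Gzmb went from 89 to 23.9 CPM (-1.55) and Ifng, the type 1 cytokine, from 75.1 to 27.3 CPM (-1.19, interval -2.11 to -0.24). Of 8 chemokine and egress receptors, Ccr2 (-1.11) and Ccr4 (-1.17) were at least 2-fold lower. Ccr2 is also in the macrophage list, and it went from 494.7 to 184.5 CPM in cells without CD3 UMIs. Of 15 interferon-response genes, Irf7 (-1.22) and Isg20 (-1.19) were. Il17a went from 72.3 to 27.3 CPM in 3 cells each time (-1.14), and the ratio was 1.22, in the other direction, after thinning to 1000 UMIs. Cxcr3, a receptor of type 1 cells, went from 144.6 to 232 CPM (0.65).

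A few regulatory genes were higher after reversal. Of 14 with enough UMIs, 3 were at least 2-fold higher (Cd83, Nt5e and Tnfrsf9), none was lower, and the median was 0.36. Tnfrsf9 went from 108.5 to 283.2 CPM (1.31, interval 0.78 to 1.85), and Nt5e, which encodes the adenosine-producing enzyme CD73, from 41.7 to 122.8 CPM (1.36, interval 0.58 to 2.14). Ikzf2 went from 483.9 to 730.2 CPM (0.58) and Tnfrsf4 from 417.2 to 634.6 CPM (0.59), both short of 2-fold. Ctla4 went the other way, from 153 to 116 CPM, with an interval that holds 0 (-0.37, interval -0.98 to 0.23). Foxp3, which chose the cells, was at 97.3 and 170.6 CPM and Cd4 at 292 and 307.1 CPM. Members admitted on Foxp3 without a Cd4 UMI were 11 of 77 at day 7 and 16 of 69 after reversal. The part of that choice in these ratios was not tested. In the repair list, Areg (36.2 to 109.2 CPM, 1.37) and Gata3 (111.2 to 242.3 CPM, 1.06) were higher and Furin (261.4 to 116 CPM, -1.11) was lower; 1 cell gave 56.2% of the Areg UMIs after reversal.

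Other genes were also higher after reversal. Rgs2, a regulator of G-protein signalling, went from 83.4 CPM in 21 cells to 371.9 CPM in 27 cells (2.03, interval 1.48 to 2.6). Trim12c went from 38.9 CPM in 13 cells to 146.7 CPM in 32 cells (1.68, interval 0.91 to 2.45), and AY036118 from 80.7 to 300.3 CPM (1.78). In cells without a CD3 UMI, AY036118 went from 93.3 to 240.1 CPM. The memory marker Cd27 went from 86.2 to 225.2 CPM (1.29) and the interleukin-7 receptor gene Il7r from 139.1 to 279.8 CPM (0.96). The naive and central memory list, which holds Il7r, did not rise as a whole. Of its 7 genes with enough UMIs none was at least 2-fold higher, 1 was lower (Klf2), and the median was -0.15. By contrast, S100g (41.7 to 2296 CPM, 5.48), Kl (0 to 187.7 CPM) and Pam (11.1 to 143.3 CPM, 2.86) rested on 1 cell each for 95.7%, 81.8% and 52.4% of their UMIs. The first 2 are genes of distal tubule cells, and S100g was at 1.16 once members above 20% mitochondrial UMIs, 2 of them after reversal, were left out.

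Markers of other cells moved between the libraries as well. All 7 macrophage markers with enough UMIs were at least 2-fold lower after reversal and all 8 proximal tubule markers at least 2-fold higher, with medians of -1.22 and 2.68. Of 4 dendritic and class II genes 2 were at least 2-fold lower (H2-Aa and H2-Ab1), with a median of -0.97. Of 2 B cell genes 1 was (Igkc). Lyz2 went from 851 to 412.9 CPM in members and from 6654 to 3774 CPM in cells without CD3 UMIs, and Gpx3 went from 169.6 to 1437 CPM in members and from 930.7 to 8278 CPM in those cells. The ratios in members and in cells without CD3 UMIs were thus alike for these genes. The summed lists were at 4467 and 1938 CPM (macrophage), 634.1 and 3989 CPM (proximal tubule) and 8201.5 and 4606.3 CPM (dendritic) in members. In cells without CD3 UMIs the dendritic list went from 45292 to 19474 CPM. The part of these markers in the other ratios was not tested.

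**Figure D4:**
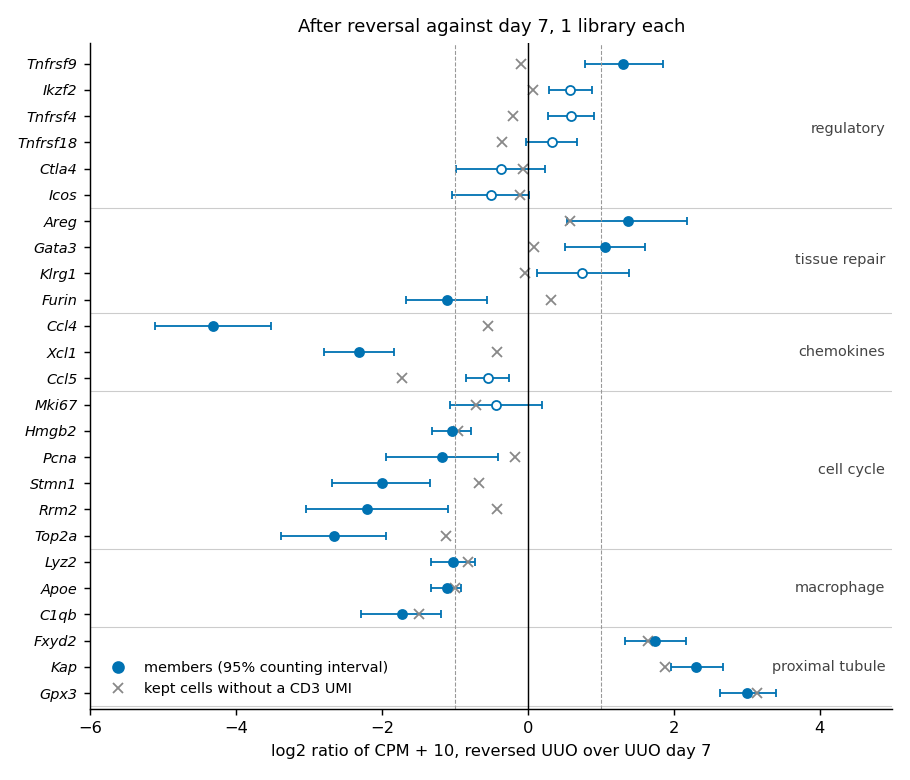
Log2 ratio of CPM plus 10, reversed UUO over day 7, in CD4 T cells (blue, with 95% counting intervals; filled at 2-fold or more) and in cells without CD3 UMIs (grey crosses), with dashed lines at 2-fold. Crosses lie near the members for macrophage and proximal tubule genes and away from them for Tnfrsf9, Ccl4, Xcl1, Top2a and Stmn1.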

How the data were processed

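Each of the 4 droplet libraries (3′ V2 chemistry, per the labels' protocols) was deposited as a matrix of raw UMI counts. Cell Ranger, STAR and GRCm38 are named in the submitters' processing notes without versions or roles. The files list 28692 gene identifiers with 28625 symbols. Filters removed cells under 200 genes or above 50% mitochondrial UMIs. Scrublet in scanpy 1.11.5 marked 3 to 12 cells per library by its automatic threshold (0.0666 to 0.325% of deposited cells). Whether these calls were right was not tested. Cells with the highest doublet scores were removed only in an alternative, 60 to 282 per library at an assumed 0.8% per 1000 cells.

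UMIs were summed per library and class, without the 8 gate genes. They were tested with edgeR 4.0.16 (quasi-likelihood, TMM, filterByExpr, library as a block, Benjamini-Hochberg, adjusted p below 0.05; 9 sums for the classes, 4 for Foxp3) or compared as ratios. Each sum pools 3 mice and each library is another time point. With the library block, p-values measure how far the differences between classes vary from library to library, not between animals. Further tools were matplotlib 3.10.9, pandas 2.3.3, scipy 1.17.1, numpy 2.4.6, Python 3.11.15, R 4.3.3 and DESeq2 1.42.0. The edgeR steps were tested on simulated data.

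Members, 26 gene lists and alternatives were chosen with earlier results of these data known. Named genes are the 10 largest called differences per direction with the same sign in every library, or 6 per direction after reversal (seen in at least 10% of cells, screened against free RNA), beside list genes and those singled out in the text after their values were seen.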

Additional observations from a re-analysis of the deposited data

How the results depend on the processing

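With at most 20% mitochondrial UMIs, members per kept cell were 0.154% in sham and 3.23% after reversal; with a Cd4 UMI required, 1.64% after reversal. Members per T cell after thinning to 1000 UMIs, an alternative added after seeing the data, were 0, 8.41, 10.1 and 12.2% from sham to reversal; with a CD3 sum of at least 1 UMI they were 16.6% at day 7 and 12.2% after reversal, and with a Cd4 UMI required 17.9% after reversal. The Foxp3-positive share was 13.6% at day 7 and 13.2% after reversal with a Cd4 UMI required, and 7.79% and 14.5% thinned to 1000 UMIs.

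Higher and lower genes against CD8 T cells numbered 49 and 37 with DESeq2, 141 and 125 without a low-count filter, 31 and 16 without the library block, 38 and 35 thinned, and 34 to 60 and 29 to 51 leaving out a library. Against T cells without Cd4 or Cd8 they were 19 and 63, 104 and 347, 4 and 9, 16 and 31, and 11 to 82 and 43 to 223, with 38 higher without the highest doublet scores. For Foxp3 they were 2 and 3 with DESeq2, 18 and 9 without TMM, 28 higher without the filter, 13 and 9 with at least 3 cells per class, 0 and 0 without the block or thinned, 13 and 8 at 20% mitochondrial UMIs, 6 and 8 without the highest doublet scores, and 19 and 14 without the top cell of each gene. After reversal they were 42 and 30 with 50 CPM added, 323 and 306 from 10 summed UMIs, and 18 and 34 thinned. The ratio of Il17a after reversal turned to 1.22 when thinned. The causes were not tested, beyond the fewer UMIs or samples that thinning and leaving out imply. DESeq2 kept 86 of 156 calls against CD8 T cells, 66 of 213 against T cells without Cd4 or Cd8, and 5 of 77 for Foxp3, with 1 reversed.

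No paired analysis was possible because each time point has 1 library; the library block pairs classes within it. At least 3 cells per class gave the same fit for the classes. Leaving out a library for Foxp3 left no residual degrees of freedom and was not run. With 17 to 77 members per library after sham, genes under about 10 CPM rest on few UMIs.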
